A study of Schizosaccharomyces pombe
Saccharomyces cerevisiae with 8 samples.

Results

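The 10 histone genes of budding yeast, Saccharomyces cerevisiae, were measured after auxin treatment of cells in which the general transcription factor Sua7 carries a degron tag. The 8 core genes are HTA1 (YDR225W) and HTA2 (YBL003C) for histone H2A, HTB1 (YDR224C) and HTB2 (YBL002W) for H2B, HHT1 (YBR010W) and HHT2 (YNL031C) for H3, and HHF1 (YBR009C) and HHF2 (YNL030W) for H4. HHO1 (YPL127C) encodes the linker histone H1 and HTZ1 (YOL012C) the variant H2A.Z. They were chosen by gene identifier, and all 10 were found in both deposited tables among 6808 genes listed in at least 1 of them, 6741 in newly synthesized RNA and 6605 in total RNA. Histones are the proteins around which DNA is wrapped, and a nucleosome core holds H2A, H2B, H3 and H4, while H1 binds the linker DNA and H2A.Z replaces H2A at many promoters. Core histone genes are transcribed in a burst around S phase, when new DNA must be packaged. Outside S phase most of them, but not all, are held down by the HIR complex, a nucleosome assembly complex. HTZ1 and HHO1 lie outside the divergent pairs in which the core genes are arranged.

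Every library came from 1 haploid strain, GZY364, of mating type MATalpha, with the alleles ade2Δ::hisG, his3Δ200, leu2Δ0, lys2Δ0, met15Δ0, trp1Δ63 and ura3Δ0. SUA7, which encodes yeast TFIIB, carried the tag SUA7-3V5-IAA7-kanMX6, an auxin-dependent degron, and his3::pGPD1-OsTIR1-HIS3 expressed the plant receptor OsTIR1 from the GPD1 promoter. Cells in YPD at mid-log phase received 500 µM auxin (3-indole acetic acid) or its carrier DMSO for 30 min and then 5 mM 4-thiouracil for 6 min, which marks RNA made in that window. Before RNA extraction the cells were mixed with cells of Schizosaccharomyces pombe. The 8 libraries formed 4 groups of 2, namely DMSO and auxin in labelled RNA, called newly synthesized RNA here, and DMSO and auxin in total RNA. The controls carry the degron and OsTIR1 too, and no strain without the degron received auxin, so an effect of auxin and of Sua7 loss cannot be told apart. The series text calls the replicates biological without naming separate cultures, and each p-value below covers only the spread between the 2 libraries of a group, which may be technical.

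Depth was 9496247 and 11779971 counts for labelled RNA with DMSO, 1291241 and 1753672 for labelled RNA with auxin, and 7010247 to 10543351 for total RNA. The summed markers of the labelled mating type lay above those of the other in every library: the 3 alpha-specific genes summed to 1158 to 22086 counts per library in newly synthesized RNA and 4060 to 12063 in total RNA, and the 5 a-specific genes to 150 to 808 and 79 to 266, with MFA1 and MFA2 at 0 to 2 in both. SUA7 RNA had a log2 change of -3.64 in newly synthesized RNA and -2.68 in total RNA, but the tag leads to loss of the protein, so RNA is no check of the labels. Levels are given as scaled counts, the raw count divided by the deposited factor of its library, and levels of different genes are compared per kb of transcript. A change is the log2 ratio of auxin to DMSO, fitted by edgeR, and its SE is the change divided by the square root of the test's F statistic. In this bulk measurement, fewer cells in S phase and less RNA per cell cannot be told apart.

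In DMSO, the genes for H4, H3 and H2A were among the most abundant protein-coding transcripts. In newly synthesized RNA per kb, HHF2 stood first among the 10 with 27758 ± 3927 scaled counts per kb (SD, n = 2), above 99.6% of the 6365 protein-coding genes listed. It was followed by HHF1 with 21857 ± 2743, HHT1 with 19214 ± 2025, HTA1 with 14527 ± 1533, HTA2 with 14167 ± 1815 and HHT2 with 13043 ± 2099 (SD, n = 2 each). The means of HHF1 and HHT1, and those of HTA1, HTA2 and HHT2, lay within 1 SD of each other, but this order held in both DMSO libraries. HTB2 had 4945 ± 779, HTZ1 1618 ± 399, HTB1 1538 ± 285 and HHO1 1002 ± 150 (SD, n = 2 each), and HTZ1 and HTB1 lay within 1 SD of each other, with 1336 each in the first library. The linker histone gene was thus the lowest of the 10, at percentile 56.8 of protein-coding genes.

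The order was another one in total RNA, in which RNA that has accumulated over time is measured as well. HHF1 with 20380 ± 2931 scaled counts per kb, HHF2 with 19076 ± 2783 and HTA2 with 16958 ± 2160 (SD, n = 2 each) had means within 1 SD of their neighbours, in the same order in both DMSO libraries, followed by HHT1 with 11666 ± 1794 and HTA1 with 7342 ± 894. HHT2 had 3769 ± 200, HTB2 1007 ± 124, HTZ1 405 ± 33.6, HHO1 389 ± 17.9 and HTB1 110 ± 5.81 (SD, n = 2 each). HTZ1 and HHO1 had means within 1 SD of each other, with HTZ1 the higher in both libraries, and HTB1 was lowest, at percentile 30.9 of 6230 protein-coding genes.

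The 4 core proteins enter the nucleosome in equal number, but their transcripts were not counted in equal number. The H4 genes made up 41.8 to 43.2% of the per-kb signal of the 8 core genes over the 4 libraries, and the H2B genes 5.18 to 5.66%, in newly synthesized RNA. In total RNA, the H2B share was 1.37 and 1.41% with DMSO, against 1.74 and 2.10% with auxin. The H2B genes therefore had the smallest share of the 4 proteins in every library of both tables. Among protein-coding genes, HTB2 was not low in DMSO, at percentile 94.1 in newly synthesized RNA and 82.2 in total RNA. The copies for 1 protein are nearly identical (H2A, H2B) or encode identical proteins (H3, H4), per the deposited descriptions. The sources used here do not say how reads that match both copies were counted, and the level of a single copy is uncertain for that reason. If such reads were left out, the share of each protein is uncertain as well.

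**Figure D1:**
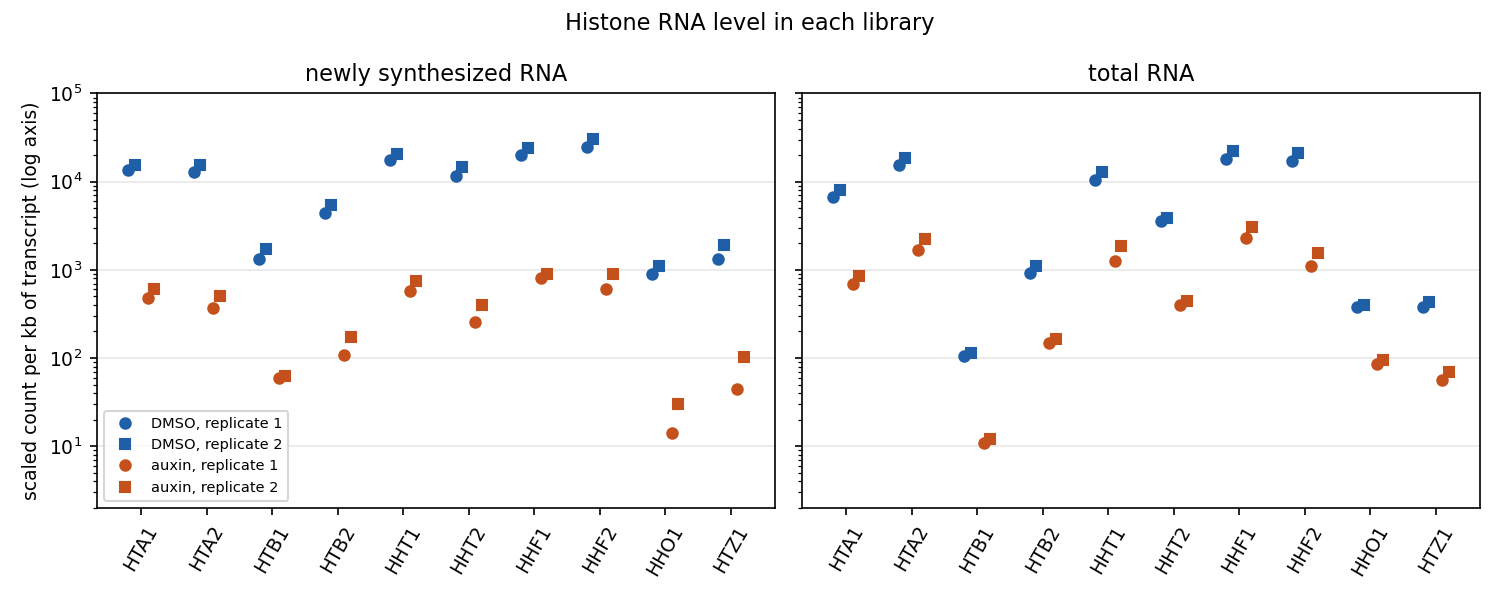
Scaled counts per kb of transcript (log axis) of the 10 histone genes in each library, newly synthesized RNA on the left and total RNA on the right, with 1 point per library. Every auxin point lies below every DMSO point of its gene, and HTB1 in total RNA is lowest.

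After auxin, newly synthesized RNA of all 10 histone genes fell on the deposited scaling, to between 2.22% (HHO1) and 4.54% (HTZ1) of the DMSO mean. The fall was general: 97.6% of the 5800 tested genes fell, and the median gene, at a log2 change of -4.08, kept 5.93% of its DMSO level. The 10 histone genes had a median log2 change of -4.94, and each of them was below the median of all genes. The question this comparison addresses is how much newly synthesized RNA of each gene remains after auxin in cells whose TFIIB carries the degron.

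HHO1 had the lowest change of the 10, with 697 and 861 scaled counts with DMSO, against 11.1 and 23.5 with auxin. Its auxin libraries lay far below both DMSO libraries and differed from each other about as 16 differs from 34, the raw counts. Its log2 change was -5.48 (with SE 0.39, edgeR adjusted p = 5.67e-41), percentile 1.57 of all changes.

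The genes of the HHT2-HHF2 locus, for H3 and H4, came next. HHT2 had 4751 and 5970 scaled counts with DMSO, against 104 and 163 with auxin (log2 change -5.33, SE 0.41, edgeR adjusted p = 3.64e-37). HHF2 had 7794 and 9527 scaled counts with DMSO, against 187 and 278 with auxin (log2 change -5.22, SE 0.41, edgeR adjusted p = 7.36e-36). The groups of both genes were far apart. The genes of the other H3 and H4 locus, HHT1 and HHF1, went from 7308 and 8485 to 236 and 304, and from 6214 and 7424 to 250 and 279 scaled counts. Their log2 changes were -4.87 and -4.69.

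For H2A, HTA1 had 5363 and 6229 scaled counts with DMSO, against 190 and 245 with auxin. HTA2 had 5141 and 6165 with DMSO, against 147 and 201 with auxin. HTA1 was slightly the higher of these genes in both DMSO libraries, and the log2 changes were -4.74 for HTA1 and -5.02 for HTA2. For H2B, HTB1 had 529 and 689 scaled counts with DMSO, against 23.6 and 24.9 with auxin (log2 change -4.65), and HTB2 1740 and 2176 with DMSO, against 43.0 and 68.4 with auxin (-5.13). Raw auxin counts of HTB1 were 34 and 36, the fewest of the core genes.

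HTZ1, whose product H2A.Z is exchanged into nucleosomes by the SWR1 complex, kept the most on the mean of the 2 auxin libraries. This rank rested on the second auxin library, where 6.33% of the DMSO mean was left. In the first, 2.75% was left, less than for HTB1 (3.87%), HHF1 (3.67%), HTA1 (3.28%) and HHT1 (2.99%). HTZ1 had 541 and 769 scaled counts with DMSO, against 18.0 and 41.5 with auxin, from 26 and 60 raw counts. Its log2 change was -4.46 (with SE 0.37, edgeR adjusted p = 3.61e-33). The 4 log2 ratios of 1 auxin to 1 DMSO library ran from -5.42 to -3.71, the widest span of the 10 genes.

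Total RNA of all 10 genes fell too on the deposited scaling, among 5479 tested genes of which 90.3% fell. The median log2 change of all genes was -2.34, which leaves 19.8%, and that of the 10 histone genes was -3.02. The core genes had a median of -3.14, and all 8 lay below the median of all genes, as did HTZ1, while HHO1 lay above it. What was left ranged from 6.99% (HHF2) to 23.1% (HHO1) of the DMSO mean.

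HHF2, for H4, had 5338 and 6566 scaled counts with DMSO, against 349 and 484 with auxin. Its log2 change of -3.84 (an SE of 0.28 and an edgeR adjusted p = 8.43e-40) was the lowest of the 10 genes and stood at percentile 4.49 of all genes. HHF1, the other H4 gene, had 5712 and 7005 scaled counts with DMSO, against 718 and 944 with auxin (log2 change -2.94, SE 0.27, edgeR adjusted p = 5.18e-27). The 4 ratios of 1 auxin to 1 DMSO library ran from -4.23 to -3.46 for HHF2 and from -3.29 to -2.60 for HHF1, and did not overlap.

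HTA1 went from 2677 and 3182 to 273 and 337 scaled counts, and HTA2 from 6157 and 7375 to 679 and 897. The log2 changes of these H2A genes were -3.26 and -3.10. HHT1 went from 4273 and 5316 to 511 and 771, and HHT2 from 1491 and 1607 to 163 and 180. The H3 genes changed by -2.90 and -3.17. HTB2 went from 364 and 433 to 59.0 and 65.1 scaled counts, a log2 change of -2.68. HTB1 had only 37 and 43 raw counts in DMSO and 5 in each auxin library, so its log2 change of -3.23 has an SE of 0.47, against at most 0.29 for the other 9 genes.

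The genes outside the core set changed least, with HTB2, in total RNA. HTZ1 had 154 and 174 scaled counts with DMSO, against 22.6 and 27.8 with auxin (log2 change -2.70, SE 0.29, edgeR adjusted p = 4.09e-20). HHO1 had 293 and 312 scaled counts with DMSO, against 66.0 and 73.8 with auxin (log2 change -2.11, SE 0.26, edgeR adjusted p = 2.04e-15). The 4 library ratios of HHO1, from -2.24 to -1.99, overlapped those of no other histone gene. HHO1 thus had the lowest change of the 10 in newly synthesized RNA and the highest in total RNA, percentile 58.1 of all genes there. The tables were normalized separately and the difference between them was not tested.

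In the authors' deposited table, the log2 fold changes of the 10 genes ran from -5.43 (HHO1) to -4.41 (HTZ1) in newly synthesized RNA and from -3.81 (HHF2) to -2.09 (HHO1) in total RNA.

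**Figure D2:**
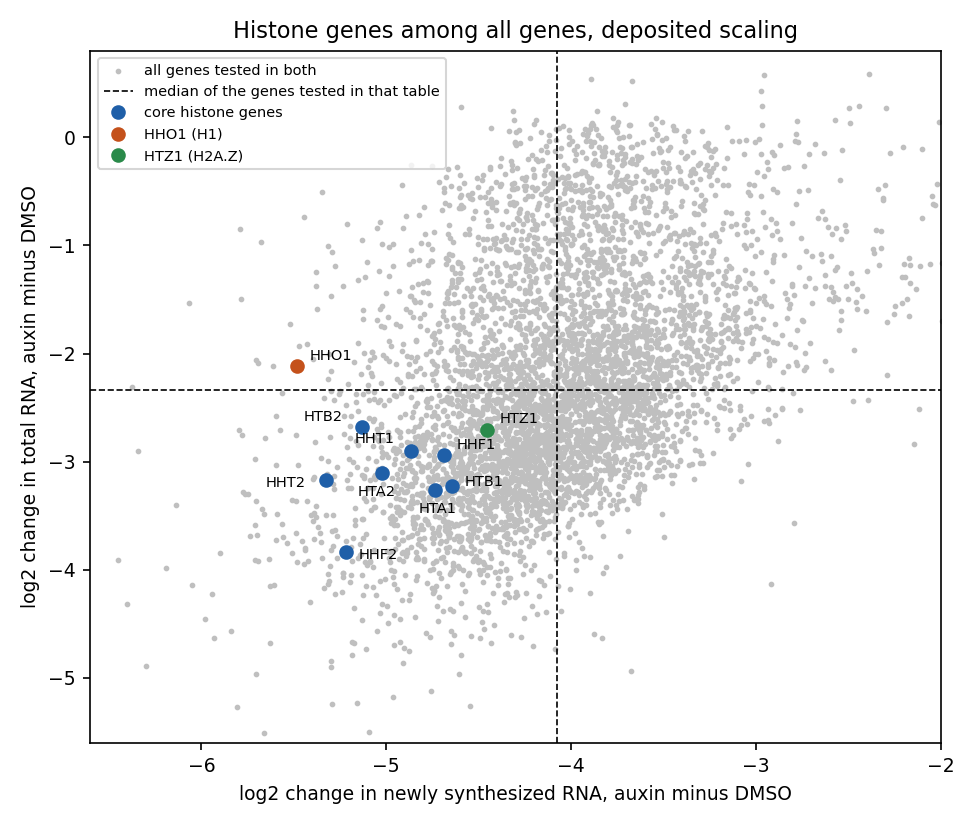
Log2 change in total RNA against log2 change in newly synthesized RNA (auxin minus DMSO, deposited scaling) for the 5433 genes tested in both tables, with the 10 histone genes coloured and dashed lines at the median of the genes tested in each table; 148 genes lie outside the plotted range. The histone genes lie left of the vertical line, and HHO1 alone of them lies above the horizontal line.

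The fall in absolute terms rests on the deposited factors, so the changes were also read against the typical gene, with TMM factors, which set the median of all genes to -0.032 in newly synthesized RNA and -0.11 in total RNA. Relative to the typical gene, 9 of 10 histone genes fell in newly synthesized RNA, where 27.5% of the 5816 tested genes fell and 29.6% rose. The median log2 change of the 10 genes was -0.92, and all 10 were below the median of all genes. The lowest were HHO1 (-1.46, SE 0.20, edgeR adjusted p = 4.37e-06), HHT2 (-1.30), HHF2 (-1.19), HTB2 (-1.11) and HTA2 (-0.99). The others past the threshold were HHT1 (-0.84), HTA1 (-0.71), HHF1 (-0.65) and HTB1 (-0.62). HTZ1 did not pass, at -0.43 (SE 0.20, edgeR adjusted p = 0.0729), and leaving out 1 library moved it between -0.92 and -0.15, past the threshold without the second auxin library (edgeR adjusted p = 0.00238) or the first DMSO library (edgeR adjusted p = 0.0288). The call of HTB1 (edgeR adjusted p = 0.00803) was lost with DESeq2 (adjusted p = 0.111), without the second DMSO library (edgeR adjusted p = 0.0622) and without the second auxin library (edgeR adjusted p = 0.157).

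In total RNA relative to the typical gene, 7 of 10 fell, where 38.1% of 5430 tested genes fell and 34.9% rose. The 10 genes had a median log2 change of -0.80. HHF2 was lowest at -1.62 (SE 0.078, edgeR adjusted p = 4.15e-12), followed by HTA1 (-1.04), HHT2 (-0.95), HTA2 (-0.88), HHF1 (-0.71), HHT1 (-0.69) and HTB2 (-0.46). The call of HTB2 (edgeR adjusted p = 0.00719) was lost with DESeq2 (-0.41, adjusted p = 0.147), which leaves 6 of 10. HTB1 had -1.02 (SE 0.47, edgeR adjusted p = 0.0597) and HTZ1 -0.48 (SE 0.22, edgeR adjusted p = 0.0600), neither past the threshold. HHO1, which fell on the deposited scaling, had a value of 0.11 here (SE 0.15, edgeR adjusted p = 0.506). This value was 0.17 without the first DMSO library, 0.014 without the second and 0.055 without the first auxin library, so no direction is read from it.

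**Figure D3:**
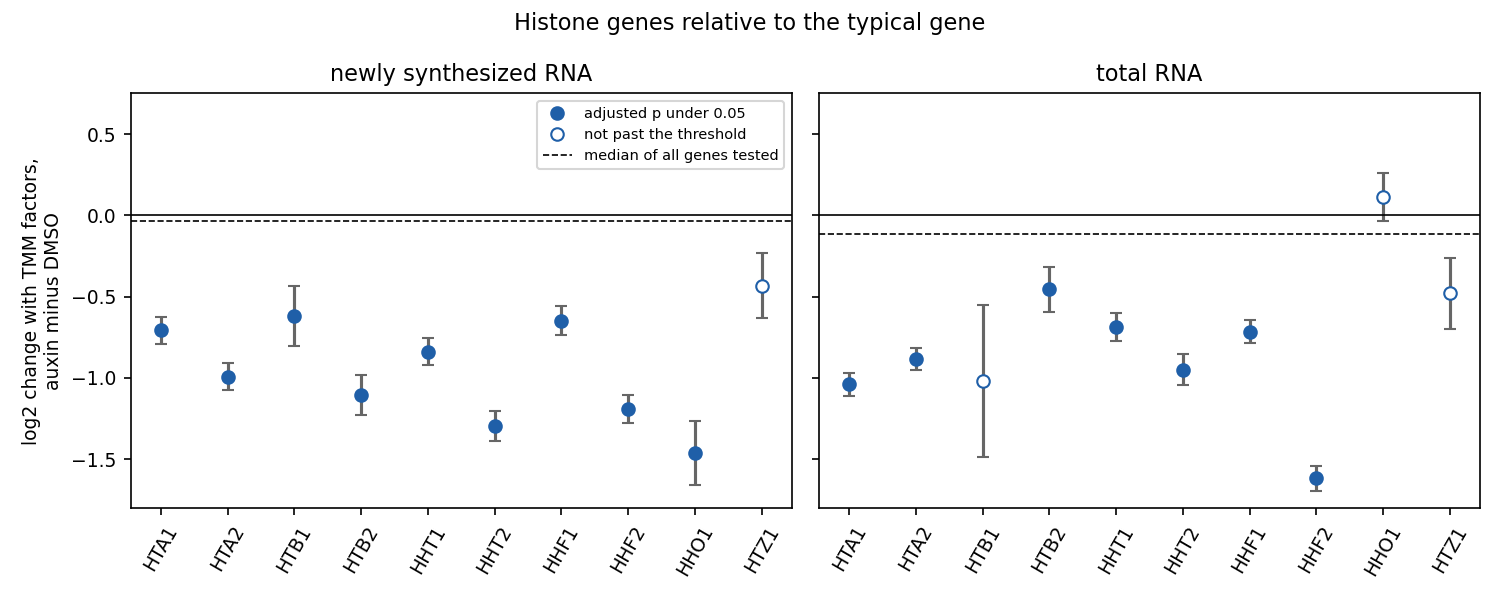
Log2 change with TMM factors (auxin minus DMSO) of each histone gene in newly synthesized RNA and total RNA; bars are 1 SE, filled points have an edgeR adjusted p under 0.05 and the dashed line is the median of all genes tested. In newly synthesized RNA all 10 points lie below the line, and in total RNA HHO1 at 0.11 lies above it.

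As a share of all counts in a library, which needs no factor, the 10 genes took 0.282 and 0.295% of newly synthesized RNA with DMSO, against 0.135 and 0.134% with auxin. In total RNA they took 0.282 and 0.289% with DMSO, against 0.0468 and 0.0550% with auxin. The auxin libraries were below the DMSO libraries in both kinds of RNA. A share also depends on all other RNA in the library. In total RNA the median gene kept 19.8% on the deposited scaling. Library totals there were 8275038 and 10543351 counts with DMSO (factors 0.88 and 0.95), against 7010247 and 7181104 with auxin (factors 1.15 and 1.04). A typical gene thus lost share in total RNA too, and with TMM factors the median log2 change of the 10 genes was -0.80.

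The core genes lie in 4 divergent pairs, each with 1 gene to either side of a shared promoter region. In sacCer3, HTB1 (chromosome IV, 914317 to 914712) and HTA1 (IV, 915530 to 915928) are 817 bases apart. HTA2 (II, 235394 to 235792) and HTB2 (II, 236492 to 236887) are 699 bases apart, HHF1 (II, 255373 to 255684) and HHT1 (II, 256331 to 256741) 646, and HHT2 (XIV, 575640 to 576050) and HHF2 (XIV, 576727 to 577038) 676. These bounds have lengths that are multiples of codons and are taken as coding sequence without UTRs. HHO1 (XVI, 308828 to 309604) and HTZ1 (XV, 303579 to 303983) stand alone, and no other listed gene overlaps any of the 10.

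Among newly synthesized transcripts, the changes of the genes of a divergent pair lay closer together than those of copies of the same protein at different loci, a difference that was not tested. The log2 changes of partners differed by 0.091 (HTA1 and HTB1), 0.11 (HTA2 and HTB2), 0.18 (HHT1 and HHF1) and 0.11 (HHT2 and HHF2). The changes of copies differed by 0.28 (H2A), 0.49 (H2B), 0.46 (H3) and 0.53 (H4), with the lower value at the HTA2-HTB2 and HHT2-HHF2 loci each time. The factor of a library is shared by all its genes and cancels in such a comparison. Within each library the share of one partner in its pair overlapped between DMSO and auxin at HTA1-HTB1 and HTA2-HTB2, and did not at the other two loci. In total RNA the order was not the same: partners differed by 0.038, 0.42, 0.032 and 0.66 in that order of loci, and copies by 0.16, 0.54, 0.27 and 0.90.

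The share of each copy can be read within a library without any model. HTA1 in newly synthesized RNA made up 51.1 and 50.3% of H2A signal per kb in DMSO and 56.4 and 54.9% in auxin. HTB1 made up 23.3 and 24.0% of H2B signal with DMSO, against 35.4 and 26.7% with auxin. HHT1 made up 60.6 and 58.7% of H3 signal with DMSO, against 69.5 and 65.1% with auxin, and HHF1 44.4 and 43.8% of H4 signal with DMSO, against 57.2 and 50.1% with auxin. For all 4 proteins, both auxin libraries lay above both DMSO libraries, though no exact permutation test of 2 against 2 libraries can reach a p of 0.05. The H2B shares with auxin rest on few raw counts, 34 of 96 and 36 of 135, and the second lay close to the DMSO values.

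In total RNA the shares moved in different directions. HTA1 made up 30.3 and 30.1% of H2A signal with DMSO, against 28.7 and 27.3% with auxin, and HTB1 10.3 and 9.45% of H2B signal in DMSO and 6.85% in each auxin library. The HTB1 share with auxin rests on 5 of 73 raw counts in each library. HHT1 made up 74.1 and 76.8% of H3 signal with DMSO, against 75.8 and 81.1% with auxin, and these groups overlapped. HHF1 made up 51.7 and 51.6% of H4 signal with DMSO, against 67.3 and 66.1% with auxin, the shift with the widest gap between the groups. Only HHF1 therefore had a higher share after auxin in both kinds of RNA with no overlap of groups.

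Since reads of near-identical copies may be split between them, counts of both copies were also summed. A sum does not recover reads that were left out or counted at S. pombe genes. On the deposited scaling, the log2 changes of the sums in newly synthesized RNA were -4.87 (H2A), -5.00 (H2B), -5.04 (H3) and -4.96 (H4). In total RNA they were -3.15 (H2A), -2.73 (H2B), -2.96 (H3) and -3.30 (H4). The change of a sum lies between those of its copies, so a narrower span than that of single genes follows from summing and says nothing about split reads. Relative to the typical gene, the sums of all 4 proteins fell in both kinds of RNA, and the smallest change was that of H2B in total RNA (-0.51, SE 0.13, edgeR adjusted p = 0.00253).

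**Figure D4:**
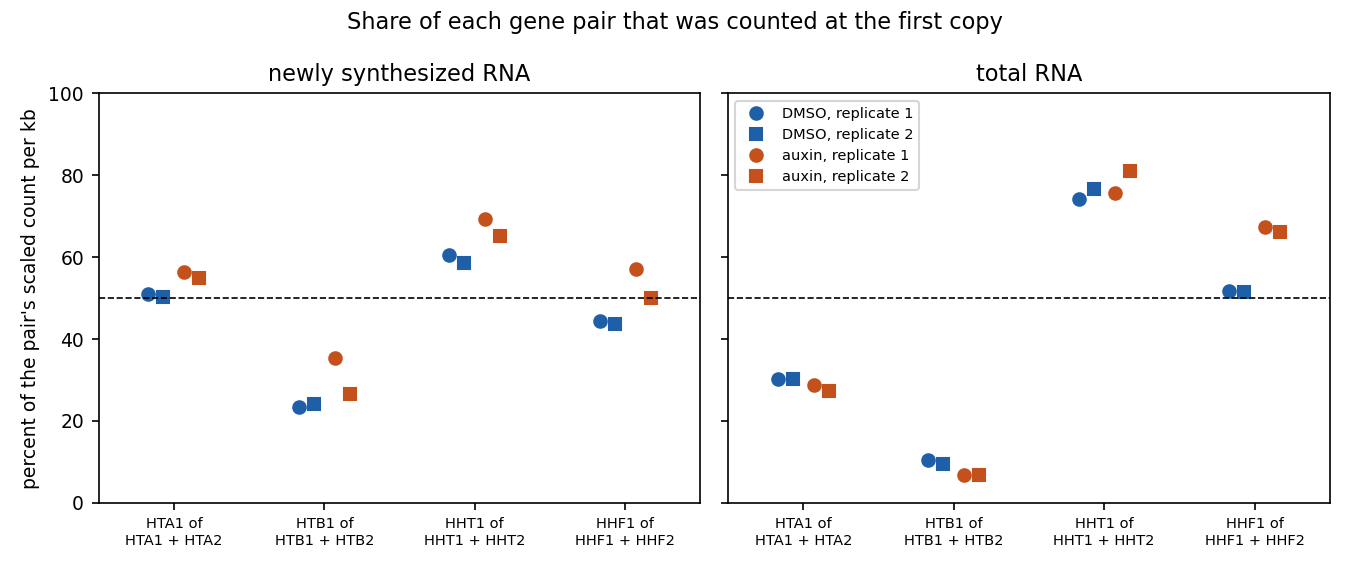
Share of the first copy (HTA1, HTB1, HHT1 or HHF1) in the signal per kb of both copies, in percent, for each library of newly synthesized RNA and total RNA. In newly synthesized RNA both auxin points lie above both DMSO points for each protein, and in total RNA this holds for H4 alone.

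The variant and linker genes were also set against the core genes within each library. In total RNA, HTZ1 signal per kb was 1.72 and 1.62% of that of HTA1 and HTA2 together in DMSO and 2.33 and 2.22% in auxin. In newly synthesized RNA the values were 5.08 and 6.12% with DMSO, against 5.27 and 9.16% with auxin, and the groups overlapped. HHO1 signal was 0.843 and 0.867% of that of the 8 core genes in newly synthesized RNA in DMSO and 0.440 and 0.707% in auxin. In total RNA it was 0.519 and 0.457% with DMSO, against 1.12 and 0.934% with auxin. HHO1 was thus lower against the core genes after auxin in newly synthesized RNA and higher in total RNA, with no overlap in either.

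In DMSO, the ratio of newly synthesized to total RNA placed the genes widely among 5423 genes with a mean count of at least 10. HTA2 stood at percentile 6.20, HHF1 at percentile 9.64, HHF2 at percentile 15.7, HHT1 at percentile 19.4 and HTA1 at percentile 25.6. HHO1 stood at percentile 38.1, HHT2 at percentile 57.6, HTZ1 at percentile 67.2, HTB2 at percentile 78.1 and HTB1 at percentile 98.4. The genes of H2B therefore stood above those of the other core proteins in this ratio. Only ranks are given, since the tables share no scale.

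The genes that act on histones were counted beside the histone genes. On the deposited scaling, where 97.6 and 90.3% of all genes fell, 10 of 10 regulators of histone genes fell in newly synthesized RNA (median -4.29, against -4.08 for all genes) and 10 in total RNA (median -2.80, against -2.34). Relative to the typical gene, 5 fell and 0 rose in newly synthesized RNA, beside 27.5 and 29.6% of all genes. In total RNA 6 fell and 3 rose, beside 38.1 and 34.9% of all genes, and with DESeq2 3 fell. The 4 subunits of the HIR complex, HIR2, HIR3, YBL008W and YBR215W, were among the 5 that fell in newly synthesized RNA. In total RNA HIR2 (-1.34), YBR215W (-1.40) and YBL008W (-0.53) fell relative to the typical gene (edgeR adjusted p = 2.65e-05, 0.00199 and 0.00298), and HIR3 did not. HIR3 had relative log2 changes of -0.35 in newly synthesized RNA and 0.31 in total RNA (edgeR adjusted p = 0.00350 and 0.00337). The first was -0.21 without the first auxin library and -0.55 without the second, and the second lost its call without either DMSO library (edgeR adjusted p = 0.0548 each). YGR270W, a chromatin protein with a role in histone gene expression, had 0.070 (edgeR adjusted p = 0.470) and 0.88 (edgeR adjusted p = 2.46e-09). On the deposited scaling HIR3 changed by -4.37 and -1.92, and YGR270W by -3.96 and -1.35.

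Histone chaperones, which hand histones to and from DNA, differed among themselves in total RNA. All 12 fell in newly synthesized RNA on the deposited scaling (median -4.10), and 10 of 12 in total RNA (median -2.37). The 2 that did not pass were SPT6, a nucleosome remodelling protein of transcribed genes, at -0.13 (edgeR adjusted p = 0.611), and SPT16, a subunit of FACT, at -0.16 (edgeR adjusted p = 0.507). Leaving out 1 library moved SPT6 between -0.32 (without the second auxin library) and 0.049 (without the first), and SPT16 between -0.35 and -0.00012 in the same settings. Raw total RNA counts of SPT6 were 6827 and 9148 with DMSO, against 7987 and 9380 with auxin, and those of SPT16 6146 and 8142 with DMSO, against 7019 and 8110 with auxin. Relative to the typical gene, 0 fell and 4 rose in newly synthesized RNA, beside 27.5 and 29.6% of all genes. With no filter 1 fell, and without the second auxin library 2 fell. SPT16, 1 of the 4 that rose, lost its call without the second DMSO library (edgeR adjusted p = 0.107) or the second auxin library (edgeR adjusted p = 0.0618). In total RNA 5 fell and 5 rose, beside 38.1 and 34.9% of all genes, SPT6 by 2.10 and SPT16 by 2.06, and with DESeq2 3 fell. On the deposited scaling 91.6% (SPT6) and 89.2% (SPT16) of the DMSO mean was left in total RNA, beside 6.99 to 15.6% for the core histone genes. The other chaperones kept less than SPT6 and SPT16, from 9.64 to 59.6%, a range that overlaps that of the core histone genes.

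The SWR1 complex exchanges H2A for H2A.Z. All 10 of its genes fell on the deposited scaling in newly synthesized RNA (median -4.14) and in total RNA (median -3.17), where all 10 lay below the median of all genes. Relative to the typical gene, 3 fell and 2 rose in newly synthesized RNA, beside 27.5 and 29.6% of all genes. The 2 that rose became 0 with DESeq2, with no filter and without the first DMSO, the second DMSO or the second auxin library, and 1 without the first auxin library. In total RNA 8 fell and 0 rose, beside 38.1 and 34.9% of all genes. Its ATPase gene YDR334W had log2 changes of -4.37 and -3.39 on the deposited scaling, and YLR399C, which encodes a bromodomain protein that associates with TFIID, -4.18 and -2.65. CSE4, for the centromeric H3 variant, had 495 and 646 scaled counts in newly synthesized RNA with DMSO, against 30.5 and 33.9 with auxin, and 251 and 300 in total RNA with DMSO, against 18.2 and 28.7 with auxin. Its log2 changes were -4.14 (edgeR adjusted p = 1.78e-30) and -3.56 (edgeR adjusted p = 1.43e-31). By these changes CSE4 stood above all 10 histone genes in newly synthesized RNA, and in total RNA it stood below each but HHF2. In the second auxin library of newly synthesized RNA, however, CSE4 kept 5.94% of its DMSO mean and HTZ1 6.33%. Raw auxin counts of CSE4 were 44 and 49 in newly synthesized RNA and 21 and 30 in total RNA.

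Of 4472 other genes with at least 100 scaled counts in DMSO in both tables, 6 were nearest to the core histone genes in their pair of changes (median -4.94 and -3.14), by Euclidean distance over the 2 log2 changes. They were YGL028C (-4.93 and -3.16), a cell wall protein with similarity to glucanases, and YJR043C (-4.97 and -3.15), a subunit of DNA polymerase delta. The next were YIL074C (-4.91 and -3.13), an enzyme of serine synthesis, and YBL009W (-4.90 and -3.11), a protein kinase of mitosis. TPS2 (-5.00 and -3.09), a phosphatase of trehalose synthesis, and YBR203W (-4.93 and -3.06) completed the set. Distances ran from 0.0224 to 0.0770. The SEs of the 6 genes' changes were larger, at least 0.378 in newly synthesized RNA and 0.277 in total RNA, so which genes are nearest is uncertain. Some had few raw counts with auxin, such as YBR203W with 19 and 43 in newly synthesized RNA. The likeness covers 2 comparisons of 4 libraries each and is a description of these changes.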

How the data were processed

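RNA-seq was made from total RNA and from 4-thiouracil-labelled RNA of S. cerevisiae cells mixed with S. pombe cells at a ratio of 1 to 3, with ribosomal RNA depleted and stranded libraries made, per the labels' protocols. The submitters' processing notes name the build sacCer3 and the tool bcl2fastq 2.17.1.14. No source used here gives the aligner, the counting tool, its use of strand or its handling of reads shared by gene copies or by S. pombe histone genes. The deposited raw counts per gene were tested. The deposited normalized signal equals the count divided by 1 factor per library. No source used here says how the authors set the factors, and that they track S. pombe RNA is an assumption behind each absolute change. The log2 fold changes and p-values of the authors are deposited beside them.

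All genes of 1 table were fitted with edgeR 4.0.16 (quasi-likelihood test, R 4.3.3) for DMSO against auxin, 2 libraries each, with library sizes from the deposited factors or with TMM factors, after filterByExpr at a minimum count of 10. Calls needed an adjusted p (Benjamini-Hochberg) under 0.05. The SE is the absolute log2 change divided by the square root of F, not a fitted standard error. The fits were tested on simulated data in which most genes did not change. That setting does not cover a fall of most genes, as seen here on the deposited scaling. DESeq2 1.42.0, median-of-ratios factors, a test against a log2 change of 1, other filters, a replicate block and each library left out were alternatives, and summing both gene copies was added after seeing the data. Replicates differed by more than sampling noise (chi-square per degree of freedom 2.66 to 12.0). The members and lists were chosen with earlier results of these data known. Named genes were the 10 members, the 2 most abundant of each list, CSE4, SUA7, the mating-type genes and the 6 nearest genes; other list members were named for their counts. Gene names are those in the files. Sequences and promoter motifs were not analysed here.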

Additional observations from a re-analysis of the deposited data

How the results depend on the processing

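On the deposited scaling, 10 histone genes were lower in each kind of RNA, and the count was 9 (newly synthesized) and 7 (total) with median-of-ratios or TMM factors and 9 in total RNA at a mean count of at least 50, where HTB1 was not tested. Relative to the typical gene, 9 and 7 were lower, with 8 to 10 and 6 to 8 over the alternatives. The replicate numbers did not pair the libraries (r of the deviations -0.059 and 0.059), and with the replicate block 10 and 7 were lower, since HTZ1 passed in newly synthesized RNA (-0.46, adjusted p = 0.0414). With the block SPT6 (-0.13, adjusted p = 0.0143) and SPT16 (-0.17, adjusted p = 0.00173) passed in total RNA on the deposited scaling, and 0 genes of the SWR1 complex were higher in newly synthesized RNA with TMM. With median-of-ratios and TMM factors the changes turned positive for HHO1 in total RNA (0.15 and 0.11), YGR270W (0.075 and 0.070 in newly synthesized RNA, 0.92 and 0.88 in total RNA), SPT6 (0.51 in both, 2.14 and 2.10), SPT16 (0.27 in both, 2.10 and 2.06), HIR3 in total RNA (0.35 and 0.31) and SUA7 in newly synthesized RNA (0.40 and 0.39). Leaving out 1 library moved CSE4 in newly synthesized RNA with TMM between -0.24 and 0.039, and SPT6 in total RNA on the deposited scaling between -0.32 and 0.049. HTB1 in newly synthesized RNA with TMM lost its call without the second DMSO library (adjusted p = 0.0622) or the second auxin library (0.157), and HTB2 in total RNA with DESeq2 (0.147). HTZ1 with TMM gained a call in newly synthesized RNA with no filter (0.0146) and without the first DMSO library (0.0288), and in total RNA with no filter or with the mean count minimum of 50 (0.0478 with the latter). The cause was not tested. Raw counts limit HTB1 in total RNA and HHO1, HTB1 and HTZ1 in newly synthesized RNA after auxin.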
